A study of Homo sapiens with 6 samples.

Results

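The 45 genes described here encode the machinery that copies DNA at the replication fork: the sliding clamp and its loader, the replicative polymerases with primase, GINS and CDC45, the origin recognition complex and the kinase that fires origins, RPA, the enzymes that finish Okazaki fragments, fork protection proteins and factors that rebuild chromatin behind the fork. The list follows gene names and roles, and MCM genes and genes of nucleotide synthesis were not among them. All 45 had a probe set that names the gene alone, out of 19775 genes with one, and all 45 were among the 13398 genes tested.

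Expression was measured in IMR90 cells, a human lung fibroblast line, that carry ER:Ras, an oncogenic Ras fused to an oestrogen receptor domain and switched on by 4-hydroxytamoxifen (4-OHT). Sustained Ras signalling drives these cells into oncogene-induced senescence (OIS), a lasting arrest of the cell cycle. Of the 3 states, RB-KD OIS (written RB-KD) was 6 days of 100 nM 4-OHT with siRNA against RB1, the gene of the retinoblastoma protein (RB), Ctrl-KD OIS (written Ctrl-KD) was the same 4-OHT with control siRNA, and growing cells had neither, so that 4-OHT and transfection cannot be told apart in a comparison with growing cells. The siRNA was added 2 days after 4-OHT, that is 4 days before RNA was taken. Each state had 2 arrays labelled as biological replicates, every cell carried ER:Ras, and p-values measure the spread between these replicates.

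RB1 mRNA gave a signal of 222 and 228.5 on the RB-KD arrays, against 2578 and 1914.5 on the Ctrl-KD arrays and 2627 and 2528 on the growing arrays. All 8 fibroblast markers (COL1A1, COL1A2, COL3A1, THY1, PDGFRB, VIM, FAP and LUM) lay above the median signal of every array (46 to 51.8), with COL1A1 at 40256 to 49088, but not at one level. In Ctrl-KD against growing cells 5 of 8 were lower and 1 was higher (log2 fold changes -2.25 to 0.34), in RB-KD against Ctrl-KD cells 3 were higher and 0 lower (0.11 to 1.65), and in RB-KD against growing cells 1 was higher and 3 were lower. Their summed signal was 167530 and 140040 in RB-KD cells, 121600 and 121290 in Ctrl-KD cells and 177590 and 179240 in growing cells. Of 10 markers of epithelial, endothelial and blood cells 9 had a probe set. Among these CDH1 (1.2 to 17.7), KRT5 (3.6 to 11.7) and CDH5 (5.7 to 15.3) lay under the median of every array, SFTPC (71.6 to 189.2) and PECAM1 (98.1 to 164.9) lay above it on every array, and EPCAM (38.6 to 140.5), VWF, PTPRC and CD3E did so on some. The 9 summed to 441.2 to 521.9 in RB-KD cells, 498.7 to 515.3 in Ctrl-KD cells and 463.8 to 587.3 in growing cells, and 1 was called in any comparison (CD3E, lower in RB-KD than in growing cells). The part of these marker differences in the results was not tested. Signals are MAS5 intensities, a linear scale on which every array had been set to the same trimmed mean, and probe sets differ in how brightly they bind, so levels are compared between arrays and not between genes. A gene was called when its adjusted p in the limma fit over all tested genes was under 0.05. A fold change is given as the difference of mean log2 signals, with its standard error (SE) where stated.

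Replication origins are licensed in G1, when the origin recognition complex loads the MCM helicase. At the G1/S transition the kinase of CDC7 and DBF4 helps CDC45 and GINS join that helicase, and polymerases alpha, epsilon and delta then prime and extend both strands. Many of these genes are textbook targets of E2F transcription factors, which RB binds and holds in a repressed state in cells outside the cycle.

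Most replication genes were lower in Ctrl-KD cells than in growing cells and higher in RB-KD cells than in Ctrl-KD cells. Between the OIS states, 36 of 45 members were higher in RB-KD cells and 1 was lower, against 12.6% and 11.6% of all genes tested, with a median log2 fold change of 1.49 (range -0.41 to 3.06) beside -0.023 for all genes. In Ctrl-KD cells 37 members were lower than in growing cells and 3 were higher, against 21.2% and 20.5% of all genes, with a median of -1.08 (-3.06 to 0.49) beside -0.0094. In RB-KD cells 14 members were higher than in growing cells and 3 were lower, against 18.5% and 19.0% of all genes, with a median of 0.22 (-1.70 to 1.57) beside -0.015. Median centring of the arrays, which adds 0.11 to every log2 fold change of RB-KD against growing cells and 0.093 to those of Ctrl-KD against growing cells, gave 17 members higher and 3 lower in RB-KD than in growing cells while the split over all genes moved to 3097 higher and 1984 lower, against 2481 and 2552 without it. Any pair of the 3 comparisons shares arrays, so these counts are not independent of each other. The other 28 members were not called between RB-KD and growing cells, with log2 fold changes from -0.79 to 0.72 and 95% intervals whose half-width had a median of 0.38. No comparison called 4 members (RFC5, ORC2, ORC6 and RECQL4). In RNA from a whole culture, fewer cells in S phase and less RNA per cell cannot be told apart.

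**Figure D1:**
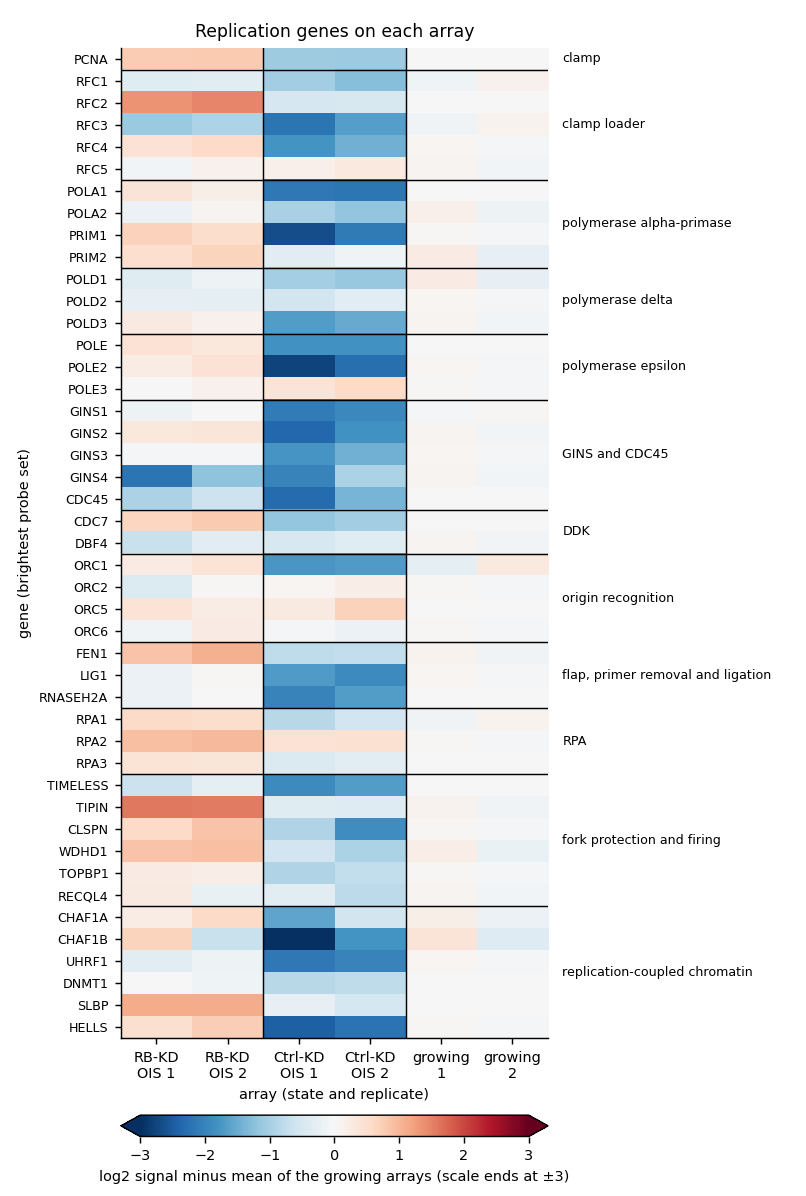
Log2 signal of the 45 members on each array, minus the mean of the 2 growing arrays, with genes grouped by complex in rows and the arrays of RB-KD, Ctrl-KD and growing cells in columns. Most rows are blue in the Ctrl-KD columns, where 37 members were called lower than in growing cells.

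**Figure D2:**
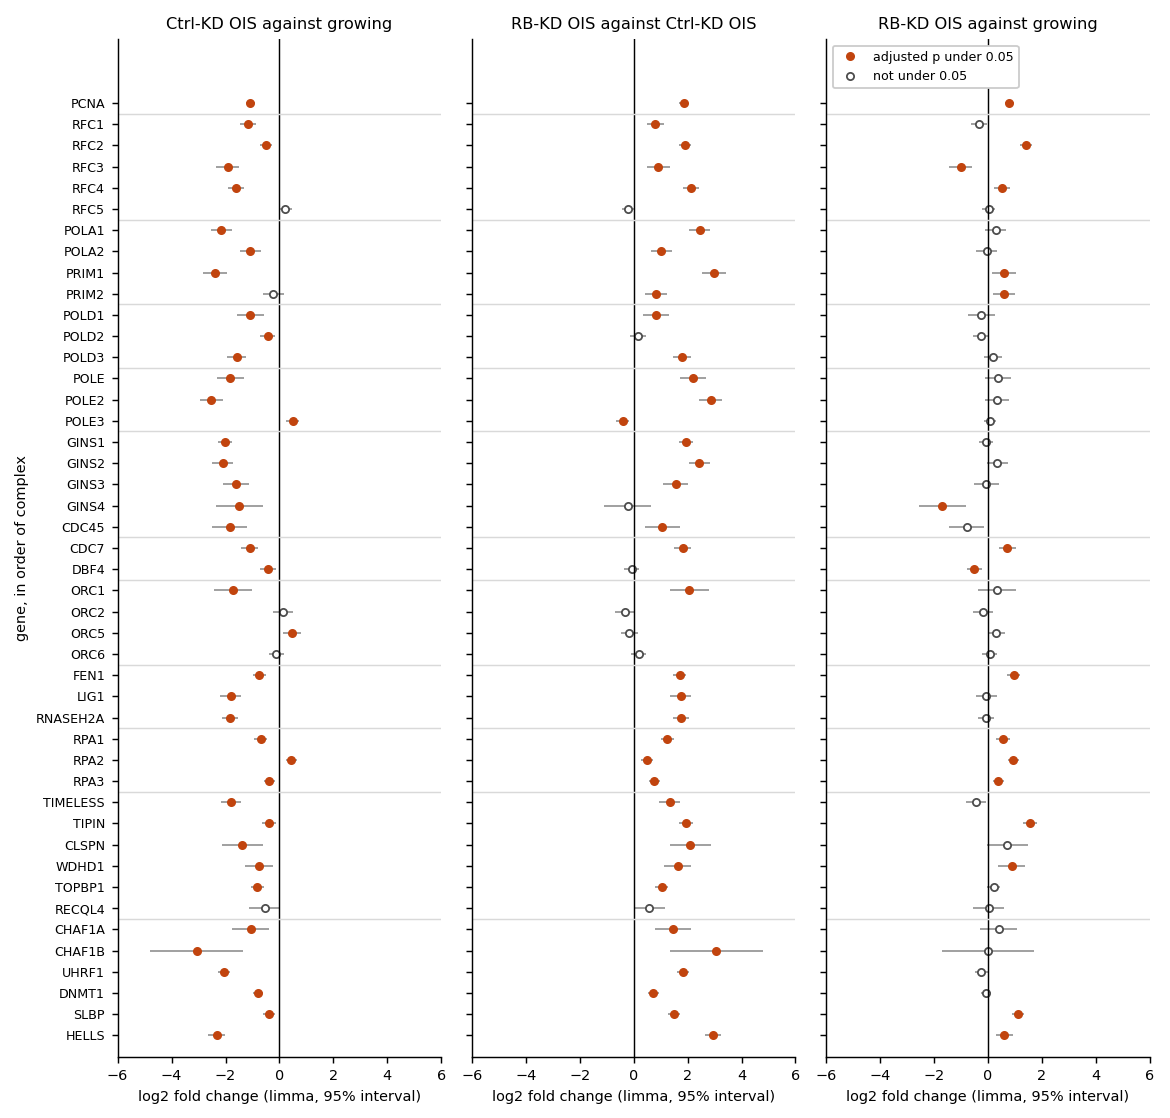
Log2 fold change of each member (horizontal axis) in the 3 comparisons, with limma's 95% interval as a line. Filled points have an adjusted p under 0.05: 40 members in Ctrl-KD against growing cells, 37 in RB-KD against Ctrl-KD cells and 17 in RB-KD against growing cells.

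Promoters of the members were searched for the words of an E2F-type motif, TTTCCCGC, TTTGGCGC, TTTCGCGC and TTTGCCGC, on both strands of a window from 250 bases before to 50 after the RefSeq gene start (GRCh38.p14). RefSeq windows matched 40 of 45 members (all but POLD3, GINS4, RPA2, RPA3 and RECQL4). A word was found in 15 of these 40 promoters (37.5%), against 3.31% of all 35116 promoters of the same length. All 15 belonged to the 33 matched members called higher in RB-KD than in Ctrl-KD cells (45.5%), and 0 of the other 7 held one. The words of the CHR element of mitotic genes (TTTGAA and TTCGAA) stood in 2 of 40 member promoters, those of POLE3 and DBF4 (5% against 16.4% of all), and CCAAT in 19 of 40 (47.5% against 34.6%). The set of all promoters was not matched to the members in base content or in expression. These matches describe letters in a window and were not tested for use by any factor. Stretches from 150 bases before to 10 after the start are shown for the 5 matched genes with an E2F-type word whose signal differed most between the OIS states, with the word in capitals as it reads on the strand of the gene (GCGCCAAA is TTTGGCGC on the opposite strand). Overlapping matches were each counted.
HELLS (chr10:94545638-94545797, plus strand): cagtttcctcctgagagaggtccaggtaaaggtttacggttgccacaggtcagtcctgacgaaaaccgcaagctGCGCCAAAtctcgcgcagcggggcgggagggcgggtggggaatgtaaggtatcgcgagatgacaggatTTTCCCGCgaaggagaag
POLE2 (chr14:49688205-49688364, minus strand): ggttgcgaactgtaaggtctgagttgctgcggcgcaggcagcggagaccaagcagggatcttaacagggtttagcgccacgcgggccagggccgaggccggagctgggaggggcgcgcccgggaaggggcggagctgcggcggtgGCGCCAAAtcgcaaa
POLA1 (chrX:24693768-24693927, plus strand): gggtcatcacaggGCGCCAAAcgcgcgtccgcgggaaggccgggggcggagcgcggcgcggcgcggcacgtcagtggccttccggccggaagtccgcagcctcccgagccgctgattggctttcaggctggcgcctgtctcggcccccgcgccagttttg
GINS2 (chr16:85688945-85689104, minus strand): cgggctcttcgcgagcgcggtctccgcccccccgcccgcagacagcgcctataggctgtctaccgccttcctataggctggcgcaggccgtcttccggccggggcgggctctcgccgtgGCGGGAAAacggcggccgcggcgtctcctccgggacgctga
POLE (chr12:132687333-132687492, minus strand): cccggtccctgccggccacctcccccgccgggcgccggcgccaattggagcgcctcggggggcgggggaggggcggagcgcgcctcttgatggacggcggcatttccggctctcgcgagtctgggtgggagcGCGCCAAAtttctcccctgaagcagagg
The stretches differ in where the word lies: close to the start in POLE2 (position -5), POLE (-18) and GINS2 (-31), far from it in POLA1 (-137), and at 2 positions in HELLS (-76 and -8). Promoters of CDC7 and TIPIN also held 2 words each, and in TIPIN the pair overlapped on opposite strands.

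**Figure D3:**
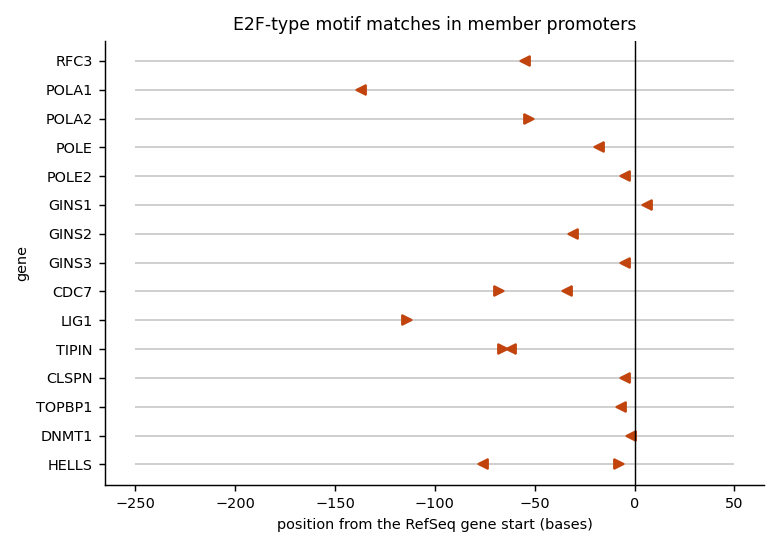
Position of each E2F-type word (18 in 15 member promoters) relative to the RefSeq gene start at 0, in bases, with 1 line per promoter over the whole window. Arrowheads pointing right mark the strand of the gene and those pointing left the opposite strand, and most words lie within 80 bases of the start, with POLA1 and LIG1 farther upstream.

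PCNA, the clamp that tethers polymerases to DNA, gave signals of 14129.7 and 14395 in RB-KD cells, 3969 and 3894 in Ctrl-KD cells and 8186 and 8413 in growing cells. The 3 states did not overlap, and RB-KD cells stood highest: the log2 fold change was 1.86 (SE 0.075, adjusted p = 1.86e-06) against Ctrl-KD cells and 0.78 (adjusted p = 5.00e-05) against growing cells. Ctrl-KD cells had 2.11-fold less PCNA signal than growing cells (log2 fold change -1.08, adjusted p = 5.23e-06).

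The clamp loader, RFC, opens PCNA and places it on DNA. Of its 5 subunit genes 4 (RFC1 to RFC4) were higher in RB-KD than in Ctrl-KD cells, and the same 4 were lower in Ctrl-KD than in growing cells. RFC4 gave 2598 and 2889 in RB-KD cells, 554 and 713 in Ctrl-KD cells and 2000.1 and 1857.5 in growing cells (log2 fold change 2.12, SE 0.13, adjusted p = 1.67e-05 between the OIS states). RFC2 gave 2376.5 and 2596 in RB-KD cells, 654 and 671 in Ctrl-KD cells and 930.5 and 939.9 in growing cells, so that RB-KD cells held 2.66-fold the growing signal (log2 fold change 1.41, SE 0.10, adjusted p = 1.16e-05). RFC3 went the other way in that comparison. Its signal was 537 and 615 in RB-KD cells and 256 and 366 in Ctrl-KD cells, both below 1075 and 1252 in growing cells, and it was lower in RB-KD than in growing cells (-1.01, adjusted p = 0.00245). RFC1, the large subunit, changed by 0.81 between the OIS states (adjusted p = 0.00264) and by -1.15 between Ctrl-KD and growing cells (adjusted p = 1.21e-04). Leaving out 1 array ended the call of RFC3 between the OIS states (adjusted p = 0.0542 without the second RB-KD array) and of RFC4 against growing cells (0.0987 without the second growing array and 0.0990 without the second RB-KD array). Once probe sets were averaged RFC1 gave -0.065 between the OIS states (adjusted p = 0.944) and -0.94 in Ctrl-KD against growing cells (0.163). RFC3 then gave 0.86 between the OIS states (0.323) and -0.85 in RB-KD against growing cells (0.272), which ended these 4 calls. The averages took in a dim probe set of each gene, at 1.4 to 41.9 for RFC1 and 4.6 to 68.9 for RFC3. The second probe set of each lay above the median on all 6 arrays and kept the sign of the brightest. It gave 0.61 and -0.90 for RFC1 and 1.03 and -1.48 for RFC3, in the same order.

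RFC5 was the loader subunit called in no comparison, and its probe sets disagreed. The brightest gave 3164 and 3667 in RB-KD cells, 3727 and 4094 in Ctrl-KD cells and 3557 and 3140.0 in growing cells, with a log2 fold change of 0.23 (95% interval -0.019 to 0.47) for Ctrl-KD against growing cells. The next gave 662 and 757 in RB-KD cells, 322 and 437 in Ctrl-KD cells and 1158 and 1005 in growing cells, and the dimmest had the same order of OIS states (203 and 196 in RB-KD cells, 90.5 and 87 in Ctrl-KD cells). With that second probe set RFC5 was lower in Ctrl-KD than in growing cells (-1.53, adjusted p = 0.000123) and higher in RB-KD than in Ctrl-KD cells (0.92, adjusted p = 0.00665). In that setting, chosen after the values were seen, RFC5 was also lower in RB-KD than in growing cells (-0.61, adjusted p = 0.0258). The mean of all its probe sets also called RFC5 in Ctrl-KD against growing cells (-0.89, adjusted p = 0.00252) and between the OIS states (0.63, adjusted p = 0.0248). Which transcript each probe set reads was not tested.

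**Figure D4:**
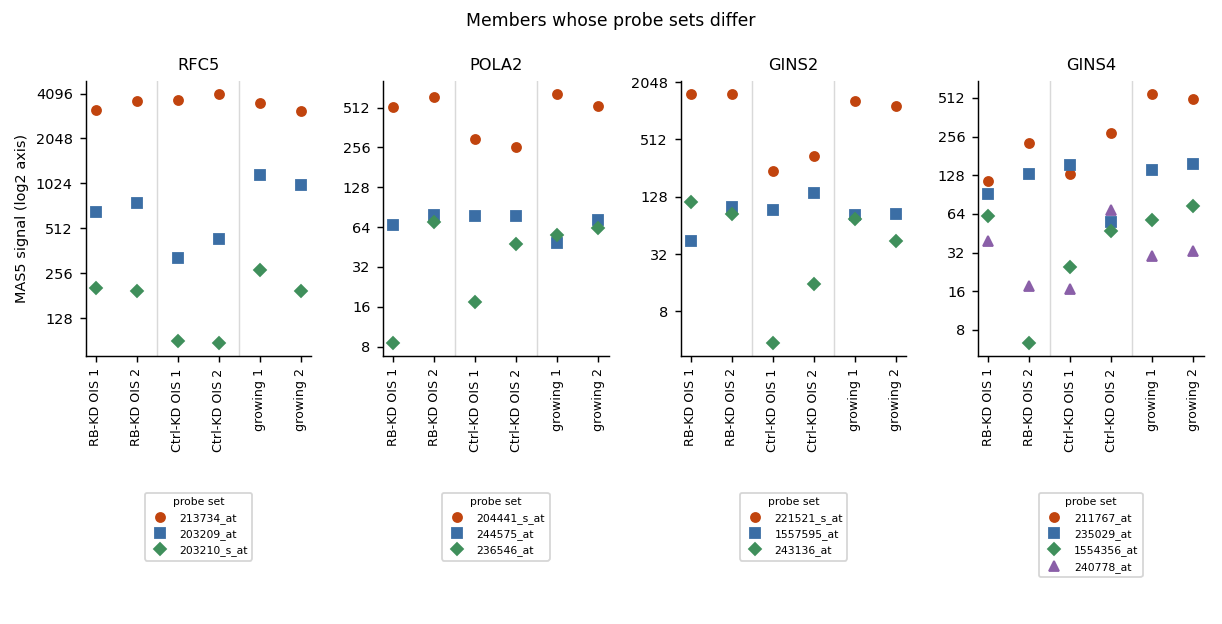
MAS5 signal (log2 axis) of every probe set that names RFC5, POLA2, GINS2 or GINS4 alone, on the arrays of RB-KD, Ctrl-KD and growing cells. The brightest RFC5 set is flat over the states while the other 2 dip in Ctrl-KD cells, and the dimmer sets of POLA2, GINS2 and GINS4 lie at or below 157.9 on every array.

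Polymerase alpha-primase lays the RNA-DNA primers, and all 4 of its genes were higher in RB-KD than in Ctrl-KD cells. PRIM1, the catalytic primase subunit, gave 955 and 849 in RB-KD cells, 94.1 and 136 in Ctrl-KD cells and 605 and 581 in growing cells, a 7.95-fold difference between the OIS states (log2 fold change 2.99, SE 0.20, adjusted p = 2.08e-05). POLA1, the catalytic polymerase subunit, gave 593 and 513 in RB-KD cells, 102 and 101 in Ctrl-KD cells and 453 and 449 in growing cells (2.44, adjusted p = 2.96e-05). In both genes the Ctrl-KD arrays lay far below the other 4. POLA2, the regulatory subunit, gave 514 and 616 in RB-KD cells, 298.5 and 259 in Ctrl-KD cells and 652 and 524 in growing cells (1.02 between the OIS states, adjusted p = 0.00322). Its second probe set, at 48.6 to 78.7 on the 6 arrays, gave -0.11 in the same comparison (adjusted p = 0.900) and 0.38 in Ctrl-KD against growing cells (0.532). PRIM2, the large primase subunit, was higher in RB-KD than in Ctrl-KD cells (0.82, adjusted p = 0.00954), with -0.23 for Ctrl-KD against growing cells (adjusted p = 0.342). Against growing cells, PRIM1 (0.60, adjusted p = 0.0381) and PRIM2 (0.59, adjusted p = 0.0256) were higher in RB-KD cells. The PRIM1 call ended without any 1 of the growing or RB-KD arrays (adjusted p up to 0.177), and the PRIM2 call without the second growing array (0.206) or either RB-KD array (up to 0.134). Between the OIS states, PRIM2 lost its call without the first Ctrl-KD array (0.0515) or the second RB-KD array (0.0630).

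Polymerase epsilon extends the leading strand. POLE2, its second subunit, gave 927 and 1066 in RB-KD cells, 114 and 165 in Ctrl-KD cells and 821.5 and 757 in growing cells (log2 fold change 2.86, SE 0.19, adjusted p = 2.23e-05 between the OIS states). POLE, the catalytic subunit, gave 336 and 313 in RB-KD cells, 70.7 and 70.8 in Ctrl-KD cells and 253 and 247 in growing cells (2.20, adjusted p = 2.00e-04). Neither was called between RB-KD and growing cells. POLE3, a histone-fold subunit, ran opposite to them and was the 1 member below Ctrl-KD in RB-KD cells: 2234 and 2429 in RB-KD cells, 2877 and 3344 in Ctrl-KD cells and 2246.5 and 2163 in growing cells (-0.41, adjusted p = 0.019 between the OIS states and 0.49, adjusted p = 0.00417 in Ctrl-KD against growing cells). Without the second Ctrl-KD or the first RB-KD array POLE3 lost its call between the OIS states (adjusted p = 0.0835 and 0.108).

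Polymerase delta extends the lagging strand, and its 3 listed genes were all lower in Ctrl-KD than in growing cells. POLD3, an accessory subunit, gave 788 and 717 in RB-KD cells, 207 and 229.5 in Ctrl-KD cells and 698 and 617.5 in growing cells (1.79, SE 0.15, adjusted p = 7.13e-05 between the OIS states). POLD1, the catalytic subunit, gave 260.1 and 299 in RB-KD cells, 164 and 152 in Ctrl-KD cells and 392 and 282 in growing cells (0.82, adjusted p = 0.0252). POLD2 was lower in Ctrl-KD than in growing cells (-0.43, adjusted p = 0.0208) and differed by 0.16 between the OIS states (95% interval -0.12 to 0.45). The POLD1 call between the OIS states ended without any 1 of their 4 arrays (adjusted p from 0.0557 to 0.116), and the POLD2 call without either growing array (0.135 and 0.0652) or the first Ctrl-KD array (0.0981). With its next brightest probe set POLD3 gave 2.09 between the OIS states (adjusted p = 0.143) and -1.11 in Ctrl-KD against growing cells (0.369). Neither call held there, but both signs did. That probe set read 8.8 to 64.5 and lay above the array median only on the 2 RB-KD arrays.

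GINS and CDC45 complete the active helicase with the MCM ring. All 5 genes were lower in Ctrl-KD than in growing cells, and 4 of 5 were higher in RB-KD than in Ctrl-KD cells. GINS2 gave 1518 and 1549 in RB-KD cells, 236 and 342 in Ctrl-KD cells and 1284 and 1147 in growing cells (log2 fold change 2.43, SE 0.17, adjusted p = 2.96e-05 between the OIS states). GINS1 gave 1427 and 1580.5 in RB-KD cells, 367 and 416 in Ctrl-KD cells and 1538 and 1621 in growing cells (1.94, adjusted p = 1.40e-05). GINS3 gave 311 and 311 in RB-KD cells, 94.2 and 119 in Ctrl-KD cells and 336 and 312 in growing cells (1.55, adjusted p = 9.76e-04). In these 3 genes both Ctrl-KD arrays lay below the other 4, and none of the 3 was called between RB-KD and growing cells. The second GINS2 probe set, at 44.1 to 140.6, gave -0.78 between the OIS states (adjusted p = 0.298) and 0.45 in Ctrl-KD against growing cells (0.498). The third, at 3.7 to 112.3, had the signs of the brightest (3.68 and -2.93 in the same order).

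GINS4, the fourth subunit of the same tetramer, was not called between the OIS states. Its signal was 115 and 228 in RB-KD cells and 131 and 271 in Ctrl-KD cells, against 553 and 501 in growing cells. The OIS arrays overlapped (-0.22 between the OIS states, 95% interval -1.09 to 0.65), and GINS4 was lower than in growing cells both in RB-KD (-1.70, adjusted p = 0.00718) and in Ctrl-KD cells (-1.48, adjusted p = 0.0127). The lower call ended without the first RB-KD array in RB-KD cells (adjusted p = 0.0569), and without the first growing (0.0579) or first Ctrl-KD array (0.0858) in Ctrl-KD cells. Both GINS4 calls also ended with its next brightest probe set (-0.45, adjusted p = 0.508 in RB-KD and -0.69, adjusted p = 0.289 in Ctrl-KD cells) or once all its probe sets were averaged (-1.03, adjusted p = 0.110 and -0.75, adjusted p = 0.217). CDC45 gave 252 and 315 in RB-KD cells, 97.7 and 187 in Ctrl-KD cells and 492.5 and 482 in growing cells, so that RB-KD arrays lay between the others. It was higher in RB-KD than in Ctrl-KD cells (1.06, adjusted p = 0.0282), a call that ended without the first Ctrl-KD array (0.0957) or either RB-KD array (0.0700 and 0.143). The difference between GINS4 and the other GINS genes was not tested.

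**Figure D5:**
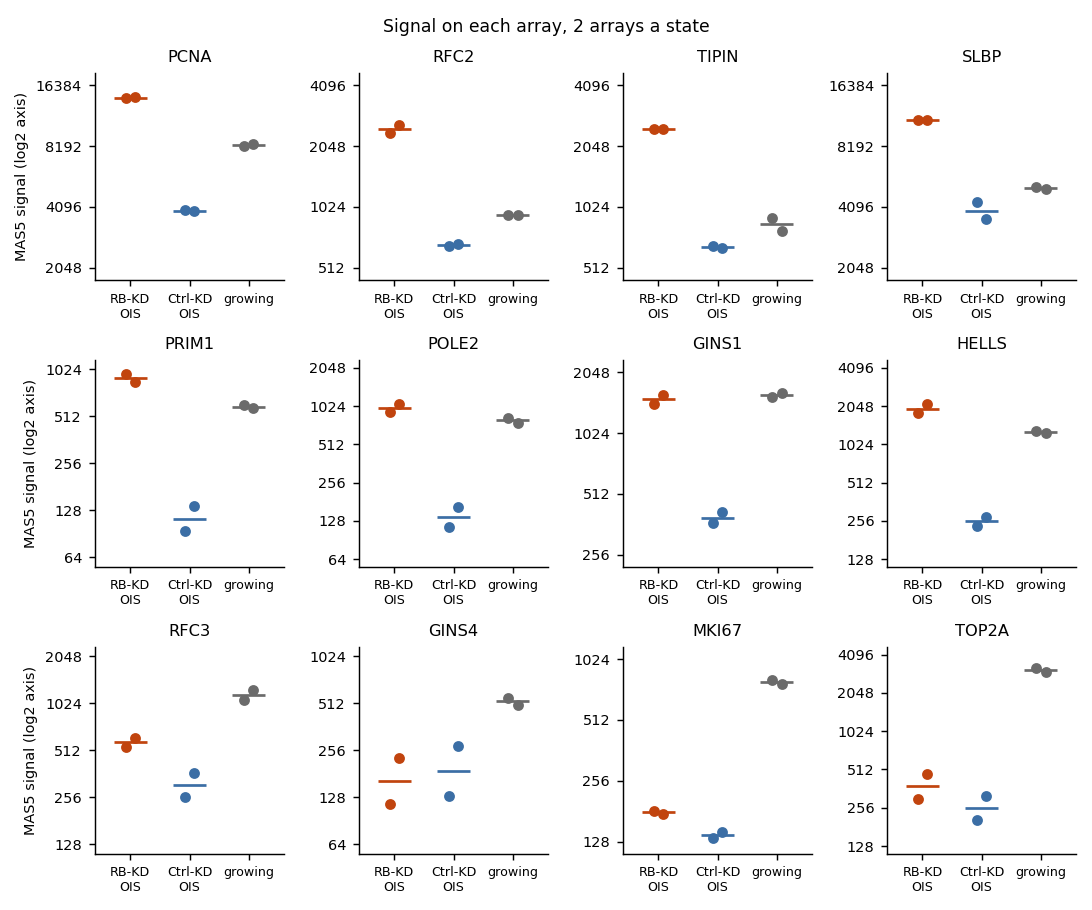
MAS5 signal (log2 axis) of 10 members, MKI67 and TOP2A on each array, with the geometric mean of the 2 arrays of a state as a bar. PCNA, RFC2, TIPIN, SLBP, PRIM1, POLE2 and HELLS lie highest in RB-KD cells, POLE2 without a call against growing cells. RFC3, GINS4, MKI67 and TOP2A lie highest in growing cells, and GINS1 overlaps between RB-KD and growing cells.

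CDC7 and DBF4, the kinase and its activating subunit, gave different calls between the OIS states, a difference that was not itself tested. CDC7 gave 826 and 909 in RB-KD cells, 237 and 255.5 in Ctrl-KD cells and 523 and 530.0 in growing cells, with no overlap of states (1.82, SE 0.14, adjusted p = 4.85e-05 between the OIS states and 0.72, adjusted p = 0.00326 in RB-KD against growing cells). DBF4 gave 1107 and 1372 in RB-KD cells, 1258 and 1349 in Ctrl-KD cells and 1852 and 1651 in growing cells. It was lower than in growing cells in RB-KD (-0.50, adjusted p = 0.0125) and in Ctrl-KD cells (-0.42, adjusted p = 0.0251), and differed by -0.08 between the OIS states (95% interval -0.37 to 0.21). Without the first growing array neither DBF4 call held (adjusted p = 0.103 for RB-KD and 0.171 for Ctrl-KD cells), nor did they without the first array of the OIS state compared (0.0826 and 0.101).

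Of the origin recognition genes listed, only ORC1 was called between the OIS states. ORC1, the subunit that is degraded and remade each cycle in human cells, gave 193 and 216 in RB-KD cells, 48 and 50 in Ctrl-KD cells and 132 and 200.2 in growing cells (2.06, SE 0.32, adjusted p = 0.00185). Its Ctrl-KD signals were barely above the array median. ORC2 gave 526.5 and 719 in RB-KD cells, 729 and 803 in Ctrl-KD cells and 709 and 685 in growing cells, while ORC6 gave 1702 and 2155 in RB-KD cells, 1743.5 and 1616 in Ctrl-KD cells and 1877 and 1781 in growing cells. Neither was called in any comparison, and their 95% intervals between the OIS states were -0.68 to 0.05 for ORC2 and -0.091 to 0.47 for ORC6. With its next brightest probe set, at 176.5 to 354.5, ORC2 was lower in RB-KD than in growing cells (-0.76, adjusted p = 0.0177). The mean of its probe sets was also called lower there (-0.47, adjusted p = 0.0432). ORC5 gave 1841 and 1608 in RB-KD cells, 1663 and 2234 in Ctrl-KD cells and 1380.0 and 1392.5 in growing cells and was higher in Ctrl-KD than in growing cells (0.48, adjusted p = 0.025), a call that ended without either growing array (0.0972 and 0.0885) or the second Ctrl-KD array (0.138).

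Lagging-strand fragments are finished by FEN1, which cuts the displaced flap, LIG1, which seals the nick, and RNase H2 with its catalytic subunit RNASEH2A, which removes RNA from DNA. All 3 genes were higher in RB-KD than in Ctrl-KD cells and lower in Ctrl-KD than in growing cells. RNASEH2A gave 1513 and 1711 in RB-KD cells, 422.5 and 534 in Ctrl-KD cells and 1694.5 and 1704 in growing cells (1.76, SE 0.14, adjusted p = 4.85e-05 between the OIS states). LIG1 gave 479 and 554 in RB-KD cells, 166 and 143 in Ctrl-KD cells and 563 and 511 in growing cells (1.74, adjusted p = 1.97e-04). FEN1 gave 4674 and 5400.2 in RB-KD cells, 1537 and 1547 in Ctrl-KD cells and 2787 and 2402 in growing cells (1.70, adjusted p = 1.76e-05). FEN1 alone of the 3 was called higher in RB-KD than in growing cells (0.96, adjusted p = 1.44e-04), while the 95% interval of the log2 fold change was -0.39 to 0.23 for RNASEH2A and -0.45 to 0.33 for LIG1.

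RPA coats single-stranded DNA, and its 3 genes were higher in RB-KD than in both Ctrl-KD and growing cells. RPA1 gave 6701 and 6433 in RB-KD cells, 2529 and 3029 in Ctrl-KD cells and 4189 and 4783 in growing cells (1.25, SE 0.11, adjusted p = 9.78e-05 between the OIS states). RPA3 gave 3087 and 3008 in RB-KD cells, 1739 and 1858 in Ctrl-KD cells and 2313 and 2347 in growing cells (0.76, adjusted p = 4.50e-04). RPA2 gave 2357 and 2493 in RB-KD cells, 1704 and 1731 in Ctrl-KD cells and 1297 and 1228.5 in growing cells (0.50, adjusted p = 0.0053). Unlike RPA1 and RPA3, which were lower in Ctrl-KD than in growing cells (-0.69, adjusted p = 8.25e-04 and -0.37, adjusted p = 0.00798), RPA2 was higher there (0.44, adjusted p = 0.00451). Against growing cells the log2 fold change in RB-KD cells was 0.94 for RPA2, 0.55 for RPA1 and 0.39 for RPA3 (adjusted p = 6.69e-05, 0.00361 and 0.00761). Without either growing array both RPA3 calls against growing cells were lost (adjusted p from 0.0548 to 0.0674), and the RPA2 call in Ctrl-KD cells was lost without the second growing array (0.0505). Once its probe sets were averaged RPA1 was 0.10 in RB-KD against growing cells (adjusted p = 0.544), which ended that call. That average took in a probe set at 58.9 to 106.5, which gave -0.61. The second RPA1 probe set, at 1340.2 to 3440, gave 0.36 and kept the call.

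TIMELESS and TIPIN form the complex that steadies a paused fork, and claspin (CLSPN) passes the checkpoint signal to CHK1. TIPIN gave 2494 and 2478 in RB-KD cells, 653 and 639 in Ctrl-KD cells and 900.2 and 781 in growing cells, and its excess over growing cells was the largest among the members (log2 fold change 1.57, SE 0.11, adjusted p = 9.23e-06, 2.96-fold). TIMELESS, its partner, was higher in RB-KD than in Ctrl-KD cells (1.34, adjusted p = 6.67e-04) and lower in Ctrl-KD than in growing cells (-1.79, adjusted p = 3.27e-05). CLSPN gave 272 and 328 in RB-KD cells, 97.7 and 49.7 in Ctrl-KD cells and 186 and 177 in growing cells (2.10, SE 0.34, adjusted p = 0.00221 between the OIS states). Its second Ctrl-KD signal was barely above the median of that array (49). WDHD1, which links the helicase to polymerase alpha, gave 414 and 429.6 in RB-KD cells, 154 and 120.2 in Ctrl-KD cells and 263 and 202 in growing cells (1.63, adjusted p = 0.00104 between the OIS states and 0.87, adjusted p = 0.0132 in RB-KD against growing cells). TOPBP1, needed for firing and for ATR activation, was higher in RB-KD than in Ctrl-KD cells (1.04, adjusted p = 2.29e-04). RECQL4, a helicase of origin firing, gave 298 and 210.4 in RB-KD cells, 198.5 and 144 in Ctrl-KD cells and 258 and 234 in growing cells. With this brightest probe set it was called in no comparison (0.57 between the OIS states, 95% interval -0.0068 to 1.14). Its next brightest probe set, at 95.8 to 247.2, was called in 2. There RECQL4 was higher in RB-KD than in Ctrl-KD cells (1.10, adjusted p = 0.0115) and lower in Ctrl-KD than in growing cells (-1.08, adjusted p = 0.00564). With 1 array left out, the calls lost were those of TIPIN and WDHD1 in Ctrl-KD against growing cells without the first growing array (adjusted p = 0.204 and 0.169) or the second Ctrl-KD array (0.0654 and 0.102), and of WDHD1 in RB-KD against growing cells without the second growing (0.104) or either RB-KD array (0.0558 and 0.0690). The next brightest probe set ended calls as well. TIMELESS gave 0.49 between the OIS states (adjusted p = 0.680) and -0.68 in Ctrl-KD against growing cells (0.478). CLSPN gave 0.79 (0.517) and -1.54 (0.133) in the same order, and WDHD1 gave 0.62 in RB-KD against growing cells (0.109). These values kept the sign of the brightest probe set. The sets read for TIMELESS (23.1 to 64.8) and CLSPN (14.5 to 95.4) lay under the array median on some arrays.

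Chromatin behind the fork is rebuilt by CAF-1 (CHAF1A and CHAF1B), which places histones H3 and H4, and DNA methylation is copied by UHRF1 and DNMT1. All 6 genes of this group were higher in RB-KD than in Ctrl-KD cells and lower in Ctrl-KD than in growing cells. HELLS, a chromatin remodeller that aids DNA methylation, gave 1801 and 2121.5 in RB-KD cells, 234 and 276.5 in Ctrl-KD cells and 1312 and 1250.3 in growing cells, a 7.69-fold difference between the OIS states (log2 fold change 2.94, SE 0.14, adjusted p = 3.88e-06). UHRF1 gave 4334.5 and 4925 in RB-KD cells, 1247 and 1362 in Ctrl-KD cells and 5698 and 5251 in growing cells (1.83, adjusted p = 8.62e-06). CHAF1B had the widest spread between replicates: 335 and 132 in RB-KD cells, 10.5 and 60.5 in Ctrl-KD cells and 274 and 162 in growing cells (3.06, SE 0.76, adjusted p = 0.0187). Its first Ctrl-KD signal was the only value of a member under the array median, and without that array the difference between the OIS states was 1.79 (adjusted p = 0.0638).

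CHAF1A changed by 1.46 between the OIS states (adjusted p = 0.00812) and DNMT1 by 0.72 (adjusted p = 5.78e-04). SLBP, which binds the stem-loop of replication-dependent histone mRNAs, is given per array because its signal in RB-KD cells stood out once values were seen. It gave 10982 and 11006 in RB-KD cells, 4316 and 3552 in Ctrl-KD cells and 5143.5 and 5032 in growing cells (1.49, adjusted p = 2.28e-05 between the OIS states and 1.11, adjusted p = 3.69e-05 in RB-KD against growing cells). Calls lost without 1 array were those of CHAF1A between the OIS states (adjusted p = 0.0636 without the second RB-KD array), CHAF1B between the OIS states also without the first RB-KD array (0.146), CHAF1A and CHAF1B in Ctrl-KD against growing cells without the first growing array (0.103 and 0.0597), CHAF1A there without the first Ctrl-KD array (0.0856), SLBP there without either growing (0.0880 and 0.0658) or the second Ctrl-KD array (0.0502), and HELLS in RB-KD against growing cells without the second growing or second RB-KD array (0.0514 and 0.0574). The HELLS call also ended once probe sets were averaged (0.50, adjusted p = 0.128). That average took in a dim probe set at 22 to 63 and another that fell to 5.1 in Ctrl-KD cells. The second HELLS probe set, above the median on all 6 arrays, gave 0.90 in RB-KD against growing cells and kept the call.

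A further 32 genes with roles at the fork were read from the same fit, of which 31 had a probe set and were tested (all but MMS22L). Between the OIS states 16 of 31 were higher in RB-KD cells and 2 were lower (51.6% and 6.45%, against 12.6% and 11.6% of all genes tested), with a median log2 fold change of 0.73. In Ctrl-KD against growing cells 2 were higher and 14 lower (6.45% and 45.2%, against 20.5% and 21.2% of all genes), with a median of -0.70. In RB-KD against growing cells 8 were higher and 2 lower (25.8% and 6.45%, against 18.5% and 19.0%), with a median of -0.043. CDCA7, a partner of HELLS, gave 758 and 777 in RB-KD cells, 71.6 and 98.2 in Ctrl-KD cells and 912 and 775 in growing cells (3.19, adjusted p = 1.21e-05 between the OIS states). USP1, which removes ubiquitin from PCNA, gave 7729 and 7626 in RB-KD cells, 1043 and 1164 in Ctrl-KD cells and 5429.7 and 5279 in growing cells (2.80, adjusted p = 7.11e-07). WDR76 gave 344 and 341 in RB-KD cells, 6.4 and 53.5 in Ctrl-KD cells and 181 and 213 in growing cells (4.21, SE 0.78, adjusted p = 0.00482), and 1 of its Ctrl-KD values lay under the array median. The 2 genes called lower between the OIS states were RNASEH2C and TOP1, named once their values were seen. RNASEH2C, a structural subunit of RNase H2, gave 1283 and 1440.4 in RB-KD cells, 2413 and 2661 in Ctrl-KD cells and 1566.5 and 1674 in growing cells (-0.90, adjusted p = 4.72e-04 between the OIS states and 0.65, adjusted p = 0.00105 in Ctrl-KD against growing cells). TOP1, the topoisomerase that relieves supercoils ahead of the fork, gave 6133.5 and 6011 in RB-KD cells, 7659 and 7473 in Ctrl-KD cells and 4713 and 4468 in growing cells (-0.32, adjusted p = 0.0176 and 0.72, adjusted p = 7.85e-05 in the same comparisons). In both genes the Ctrl-KD arrays lay above the other 4.

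TOP2A, the topoisomerase that separates sister DNA at mitosis, gave 300.4 and 472 in RB-KD cells and 204 and 317 in Ctrl-KD cells, against 3187 and 3016 in growing cells. It was lower than in growing cells in RB-KD (-3.04, adjusted p = 1.87e-05) and in Ctrl-KD cells (-3.61, adjusted p = 4.73e-06), and its difference between the OIS states was not called (0.56, 95% interval 0.0096 to 1.12, adjusted p = 0.133). The proliferation marker MKI67 gave 182 and 174 in RB-KD cells, 134 and 142 in Ctrl-KD cells and 807 and 772 in growing cells. Like TOP2A it lay below growing cells in RB-KD (-2.15, adjusted p = 2.08e-05) and Ctrl-KD cells (-2.52, adjusted p = 5.57e-06), with 0.37 between the OIS states (95% interval -0.029 to 0.77, adjusted p = 0.169). All 4 MKI67 probe sets were highest in growing cells. RB-KD cells thus held PCNA, RFC2 and TIPIN signals above those of growing cells beside MKI67 and TOP2A signals well below them, and the difference between the 2 sets of genes was not tested.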

How the data were processed

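Total RNA of 6 IMR90 ER:Ras samples was read on Affymetrix U133 Plus 2.0 arrays. The authors computed MAS5 signals in Affymetrix Expression Console (versions not given in the sources used here). The deposited intensities are these MAS5 signals for 54613 probe sets, linear and scaled by the authors, with a trimmed mean (2% off each end) of 496.15 to 496.46 on every array, signals from 0.1 to 64701 and no detection calls. The number of arrays limits the precision. Scaling each array to one level gives changes relative to that array's total.

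Log2 signals were used without an offset. In the platform annotation 41091 probe sets name 1 gene, 1801 name several and 11721 are unnamed, and symbols were updated through RefSeq. A gene was its brightest probe set (highest mean log2 signal) among those naming it alone. Genes were kept where 2 or more of 6 arrays read above their own median (13398 genes), and these were fitted in R 4.3.3 with limma 3.58.1 (a mean per state over all 6 arrays, eBayes with a trend in the prior variance), two-sided, with Benjamini-Hochberg adjustment over all of them and a threshold of 0.05. The fit was also run on simulated data with independent noise and far fewer changed genes than were called here. That run differs from these data and does not bear on single calls. The exact permutation test of 2 against 2 arrays cannot go below p = 0.333 and was not used. Groups follow the sample labels. The members, the further 32 genes, the motifs and the rule for genes given per array (up to 3 called members of a complex with the largest change between the OIS states, members called against the rest of their complex, members called nowhere) were chosen with earlier results of these data known. Replicate numbers 1 and 2 recur in each state, and correlations of same-numbered deviations from the state means were -0.0038 to 0.035. The alternatives tried were other scalings (quantile, median), an offset of 16, other filters (none, percentile 70), other rules for probe sets, a prior without trend, a fit of 2 states, a block for the replicate number, and each array left out. The study's other assays were not analysed here.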

Additional observations from a re-analysis of the deposited data

How the results depend on the processing

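Of 94 called differences of single members, 54 kept their call under every alternative that gave a value (17, or 16 for ORC1, which the filter at percentile 70 left out, and for CHAF1A and RFC1, which the unique-suffix rule left out) and 40 lost it under at least 1. Calls lost numbered 20 without the trend, 15 with the mean of all probe sets, 13 with the next brightest and 8 with a unique-suffix probe set. Uncalled differences in RB-KD against growing cells gained calls too. With only the 2 compared states in the fit, CDC45 (-0.79), TIMELESS (-0.46) and RFC1 (-0.34) were called lower. CLSPN (0.72), GINS2 (0.34) and ORC5 (0.31) were called higher in that fit. The replicate block also called CDC45 and TIMELESS lower. The numbers of members lower in Ctrl-KD than in growing cells and higher in RB-KD than in Ctrl-KD cells stayed within 1.5 times their values under every alternative (28 to 37 and 31 to 36 when 1 array was left out). Smaller counts moved. Members lower in RB-KD than in growing cells (3) numbered 1 without the trend, 6 with only the 2 compared states in the fit and 5 with the replicate block, and 1 to 5 when 1 array was left out. Members higher in that comparison (14) numbered 8 to 17 when 1 array was left out. Members higher in Ctrl-KD than in growing cells (3) numbered 1 to 3, and members below Ctrl-KD in RB-KD cells (1) numbered 0 to 2 when 1 array was left out and 0 without the trend. The replicate block changed no other count by over 1.5 times. The median log2 fold change in RB-KD against growing cells was 0.33 after median centring and 0.10 with probe sets averaged, and that between the OIS states was 1.19 with the next brightest probe set, an alternative chosen after seeing the data. Where 1 array was left out, the lone array of that state was assumed to vary like the others.

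The choice of probe set turned the sign of called members. POLA2 gave 0.38 in Ctrl-KD against growing cells and -0.11 between the OIS states, and GINS2 gave 0.45 and -0.78, both with a unique-suffix probe set and with the next brightest. RFC1 gave -0.065 between the OIS states with the mean of all probe sets, which takes in a set at 1.4 to 41.9. Values uncalled in the main fit also turned, and some RFC5 values were called once turned. With the mean of all probe sets RFC5 gave -0.89 in Ctrl-KD against growing cells (adjusted p = 0.00252) and 0.63 between the OIS states (0.0248). It gave -0.26 in RB-KD against growing cells (0.219), and ORC2 gave -0.16 in Ctrl-KD against growing cells. With the next brightest probe set RFC5 gave -1.53, 0.92 and -0.61 in the same order (adjusted p = 0.000123, 0.00665 and 0.0258). ORC2 then gave -0.46 in Ctrl-KD against growing cells and GINS4 gave 0.24 between the OIS states, neither of them called. When 1 array was left out, PRIM2 ranged from -0.46 to 0.0089 in Ctrl-KD against growing cells. Between the OIS states GINS4 ranged from -0.74 to 0.31, DBF4 from -0.24 to 0.075 and ORC5 from -0.38 to 0.049. In RB-KD against growing cells RFC5 ranged from -0.079 to 0.13, ORC2 from -0.40 to 0.045, ORC6 from -0.10 to 0.24 and RECQL4 from -0.22 to 0.28. The causes were not tested. Signals near the array median (46 to 51.8) limit ORC1, CHAF1B, CLSPN and the dimmer probe sets most.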
